A study of Mus musculus with 8 samples.

Results

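miR-143 and miR-145 were followed across 8 single-colour Agilent mouse miRNA arrays of embryonic mouse footpad skin. The members were taken by name and are the 3 mature miRNAs mmu-miR-143-3p, mmu-miR-145a-5p and mmu-miR-145a-3p, written below without the species prefix, among 1881 mouse miRNAs with probes on the array. Of these 3, miR-143-3p and miR-145a-5p were among the 385 miRNAs tested, and miR-145a-3p was detected on no array. Footpads of embryos labelled Dicer cKO, a conditional knockout, were compared with those of wild-type (WT) embryos. Dicer is the enzyme that cuts precursor hairpins to mature miRNAs. The 4 groups were cKO at E16.5 (E for embryonic day), WT at E16.5, cKO at E17.5 and WT at E17.5, all on the C57BL6 background, with 2 arrays each. Each array held Cy3-labelled RNA from footpads pooled over 3 to 5 embryos, so a p-value measures the spread between such pools. The labels name neither a Cre driver nor the cells in which Dicer was deleted, and Dicer mRNA was not measured.

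The miR-143 and miR-145 hairpins are neighbours, and in mouse they are processed from a shared primary transcript. They are abundant in vascular and visceral smooth muscle, where they are known to promote the contractile state, with transcription factors of the Klf and Elk families and the coactivator myocardin among the targets studied. In skin, smooth muscle lies in vessel walls, and miR-143 and miR-145 are also expressed in pericytes and fibroblasts. In the deposited files the probes of miR-143-3p match mm9 chromosome 18, bases 61808895 to 61808909, and those of miR-145a-5p match bases 61807494 to 61807507, both on the minus strand. The probes of miR-145a-3p match bases 61807526 to 61807546, and 1315 bases separate the probe matches of the pair of hairpins. In the RefSeq gene table both hairpins, Mir143 and Mir145a, lie within the lncRNA gene Carmn, also called Mir143hg.

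Between 279 and 384 miRNAs were detected per array, and no spot was saturated (0 spots). The lowest counts were on replicate 2 of cKO (281) and of WT (279) at E16.5, against 365 and 367 on replicate 1. On those replicate 2 arrays the dimmest probe well above background had 24.3 and 22.3 units, against 13.7 and 15.7 on replicate 1. The 11 miRNAs listed for skin epithelium, among them the miR-200 family, miR-203 and miR-205, fell in cKO over both stages, 11 of 11 tested, with a median log2 change of −2.19. Of all 385 tested, 14.5% fell, and the median change was 0.17. The epithelial count was 11 of 11 under every one of the 7 scalings tried, but 256 of all 385 fell with positive controls and 111 with total signal. The summed scaled signal of these 11 was 4.10 to 4.32 in cKO and 27.4 to 27.9 in WT at E16.5, and 2.85 to 3.77 in cKO and 29.2 to 32.3 in WT at E17.5. Of the 11, 2 were not detected in cKO at either stage, so they were tested through WT alone and could hardly rise. All 8 arrays shared 1 slide, and because each group filled its own slide column, slide position and group cannot be told apart. In bulk skin, fewer cells of a type and less RNA per cell cannot be told apart either.

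miR-143-3p, the arm of the miR-143 hairpin that accumulates in smooth muscle, was detected on all 8 arrays. Before any scaling between arrays its signal, in arbitrary fluorescence units averaged over 14 or 15 spots, was 52.3 and 53.8 in cKO and 82.5 and 60.2 in WT at E16.5. At E17.5 its signal was 88.1 and 88.5 in cKO and 96.4 and 103.8 in WT. Before scaling, both cKO arrays therefore lay below both WT arrays at each stage, and signals at E17.5 were higher than at E16.5 in each genotype. On all 8 arrays 100% of its spots were well above background, and the coefficient of variation over spots had a median of 8.75% (5.07% to 16.1%).

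miR-145a-5p, the guide arm of miR-145, gave 28.8 and 33.2 units in cKO and 33.7 and 26.1 units in WT at E16.5. At E17.5 it gave 39.9 and 37.6 units in cKO and 36.8 and 40.4 units in WT. Before scaling, cKO and WT overlapped at both stages. It was detected on all 8 arrays, with between 71.4% and 100% of its spots well above background, and its spots varied by a median of 13.9% (10.8% to 18.3%).

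miR-145a-3p, the other arm of the miR-145a hairpin, was detected on 0 of 8 arrays. Its 4 probes, with 7 or 8 spots each, ranged from −1.30 to 5.33 units over the 8 arrays, and 0% of their spots were well above background. The mean of the negative control probes was 2.56 to 4.79 units, and the dimmest probe called well above background had 13.7 to 24.3 units, depending on the array. miR-143-5p, the partner arm of miR-143-3p, was likewise detected on 0 of 8 arrays (2 probes, −1.45 to 4.86 units). miR-145b, listed separately on the array, was detected on 0 of 8 arrays too (2 probes, −3.24 to 0.27 units). No fold change is given for these 3, and a change below the array's background was not detectable.

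**Figure D1:**
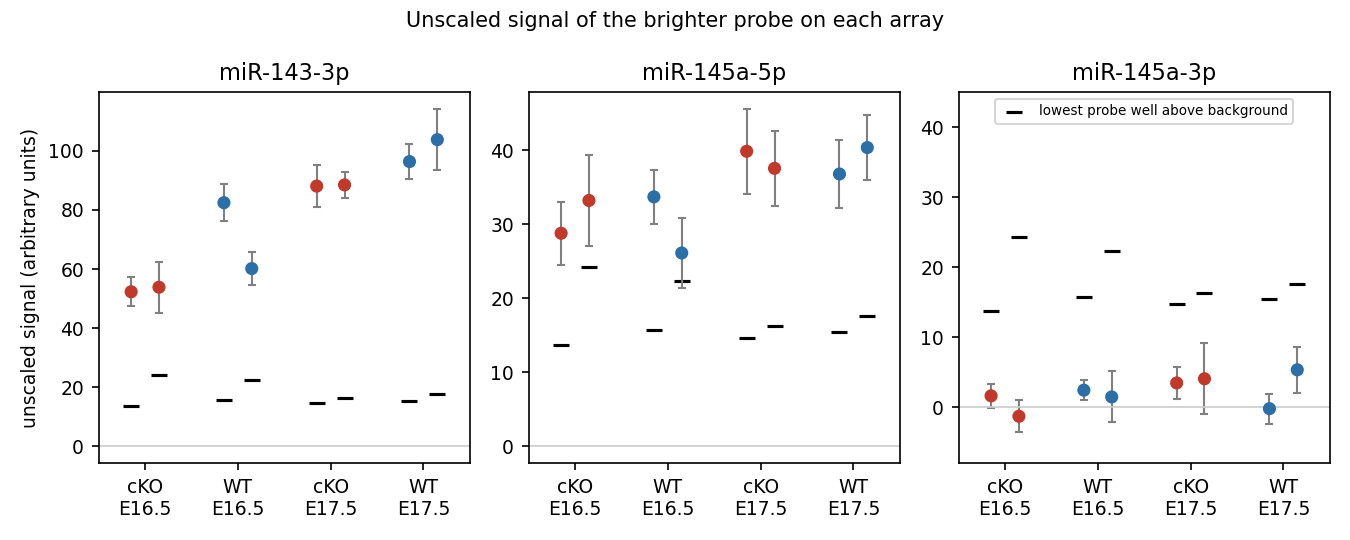
Unscaled signal (arbitrary units) of the brighter probe of miR-143-3p, miR-145a-5p and miR-145a-3p on each array, cKO in red and WT in blue, with bars for the SD over spots and a black dash for the dimmest probe well above background on that array. miR-143-3p is lower in cKO than in WT within each stage, miR-145a-5p overlaps, and miR-145a-3p lies between −1.30 and 5.33 units, below the dash on all 8 arrays.

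The arrays differed in overall brightness, so signals were set against their own array's 75th percentile, taken over 474 probes with detection on every array, a divisor that ranged from 284.3 to 521.4 units. On this log2 scale miR-143-3p was −2.46 and −2.42 in cKO and −2.27 and −2.24 in WT at E16.5. At E17.5 its levels were −2.21 and −2.08 in cKO and −2.38 and −2.33 in WT. The groups do not overlap at either stage, and the order turns between them, with cKO below WT at E16.5 (as for 19.2% of the 385 miRNAs tested) and above WT at E17.5 (as for 55.3%). From low to high the group means of the log2 level were cKO at E16.5 (−2.44), WT at E17.5 (−2.36), WT at E16.5 (−2.26) and cKO at E17.5 (−2.15), and no 2 neighbours in that order overlap in their 2 arrays.

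miR-145a-5p had scaled log2 levels of −3.32 and −3.12 in cKO and −3.56 and −3.44 in WT at E16.5. At E17.5 the levels were −3.35 and −3.32 in cKO and −3.77 and −3.69 in WT. All 4 cKO arrays lie above all 4 WT arrays on this scale, as they did for 25.5% of the 385 miRNAs tested, and at E16.5 alone cKO lay above WT for 56.1%. From low to high the group means were WT at E17.5 (−3.73), WT at E16.5 (−3.50), cKO at E17.5 (−3.34) and cKO at E16.5 (−3.22). Of the neighbours in this order, the 2 cKO groups overlap.

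The dimmer probe of miR-143-3p put the 4 groups in the same order as the brighter one, with signals of 37.1 to 73.0 units, and with it too cKO and WT do not overlap at either stage. Between stages its neighbours in that order overlap, except for the 2 WT groups. The dimmer probe of miR-145a-5p was detected on 6 of 8 arrays, with signals of 14.6 to 27.3 units, and was not detected on replicate 2 of cKO at E16.5 or replicate 2 of WT at E16.5. Its scaled log2 level was −4.06 to −3.96 in cKO and −4.41 to −4.28 in WT at E16.5, and −3.91 to −3.90 in cKO and −4.57 to −4.48 in WT at E17.5. All 4 cKO arrays again lie above all 4 WT arrays, although its 2 cKO groups stand in the opposite order to those of the brighter probe. These levels of the dimmer probe are given without the floor of −4.24 set for the main tests. On all 4 WT arrays they lay below that floor.

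**Figure D2:**
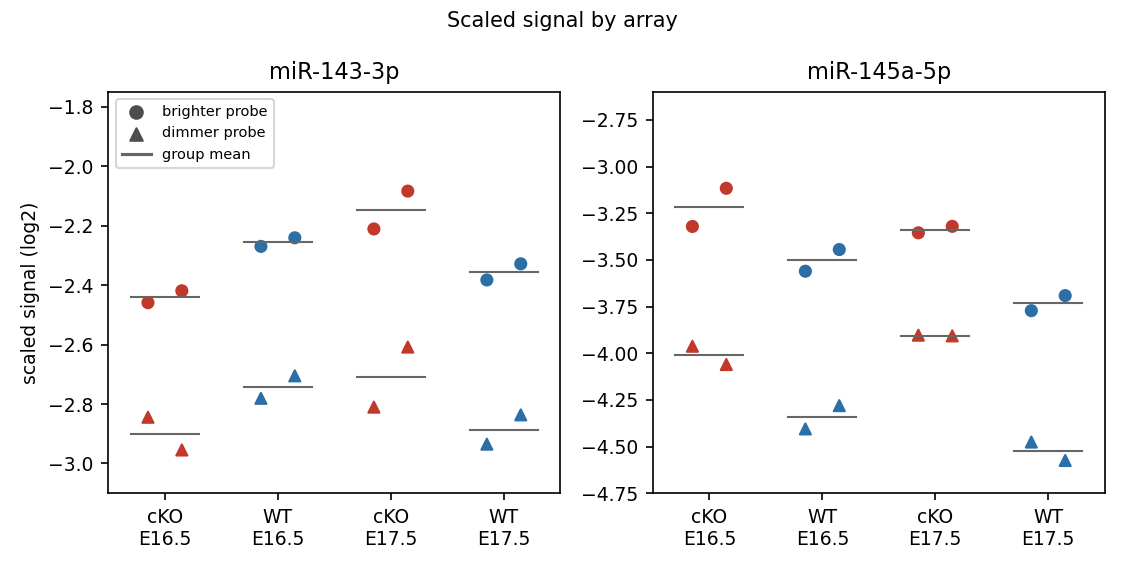
Scaled signal (log2) of both probes of miR-143-3p and miR-145a-5p by group, cKO in red and WT in blue, with circles for the brighter probe, triangles for the dimmer one and a line at each group mean of 2 arrays. For miR-143-3p the cKO arrays are below WT at E16.5 and above WT at E17.5 with the brighter probe, and for miR-145a-5p the cKO arrays are above WT at both stages with either probe.

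Over both stages miR-145a-5p rose in cKO by a log2 change of 0.34 ± 0.0573 (SE), a ratio of 1.27, with a 95% interval of 0.19 to 0.49 and an adjusted p of 0.00535 in limma with Benjamini-Hochberg adjustment over the 385 miRNAs. In that comparison 45.7% of all tested miRNAs passed the threshold of 0.05 as higher and 14.5% as lower, and the median change of all tested was 0.17, so that miR-145a-5p stood 0.17 above the median. miR-143-3p changed by 0.01 ± 0.0400 (SE), with an interval of −0.09 to 0.11 and an adjusted p of 0.828 in limma, and stood below that median by 0.15. For miR-143-3p this average combined a negative change at E16.5 with a positive one at E17.5 under the main scaling. The difference between these stage changes did not pass (adjusted p of 0.0701 in limma). The change at E17.5 was negative too with the 75th percentile of all probes (−0.12), no scaling (−0.18), total signal (−0.10) and positive controls (−0.44). With the median of detected probes (0.071) and quantile scaling (0.22) it stayed positive but did not pass.

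At E16.5 miR-143-3p fell in cKO by 0.18 ± 0.0565 (SE) on the log2 scale, with an interval of −0.33 to −0.04 and an adjusted p of 0.0462 in limma, and 15.1% of all tested miRNAs passed as lower. At the same stage miR-145a-5p rose by 0.28 ± 0.0811 (SE), with an interval of 0.08 to 0.49 and an adjusted p of 0.0388 in limma, where 35.8% passed as higher. The median change of all tested was 0.19 at this stage, which is close to that of miR-145a-5p.

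At E17.5 both miRNAs rose in cKO. miR-143-3p rose by 0.21 ± 0.0565 (SE), with an interval of 0.06 to 0.35 and an adjusted p of 0.0328 in limma. miR-145a-5p rose by 0.39 ± 0.0811 (SE), with an interval of 0.19 to 0.60 and an adjusted p of 0.0138 in limma. At this stage 35.8% of all tested miRNAs passed as higher and 10.1% as lower, and the median of all tested was 0.13.

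These stage calls rest on 2 arrays a group. With each of the 8 arrays left out in turn, the call of miR-143-3p was lost in 6 of 8 fits at E16.5 (log2 changes of −0.20 to −0.16) and in 7 of 8 at E17.5 (0.14 to 0.27). At E16.5 it was kept only without replicate 1 or replicate 2 of cKO at E17.5, and at E17.5 only without replicate 1 of cKO at E17.5. For miR-145a-5p the call was lost in 7 of 8 fits at E16.5 (0.18 to 0.39), all but the one without replicate 1 of cKO at E16.5. At E17.5 it was lost in 3 of 8 (0.35 to 0.43), those without replicate 1 or 2 of cKO (0.41 and 0.38) or without replicate 1 of WT (0.35) at that stage. Over both stages the rise of miR-145a-5p passed in 8 of 8 such fits.

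**Figure D3:**
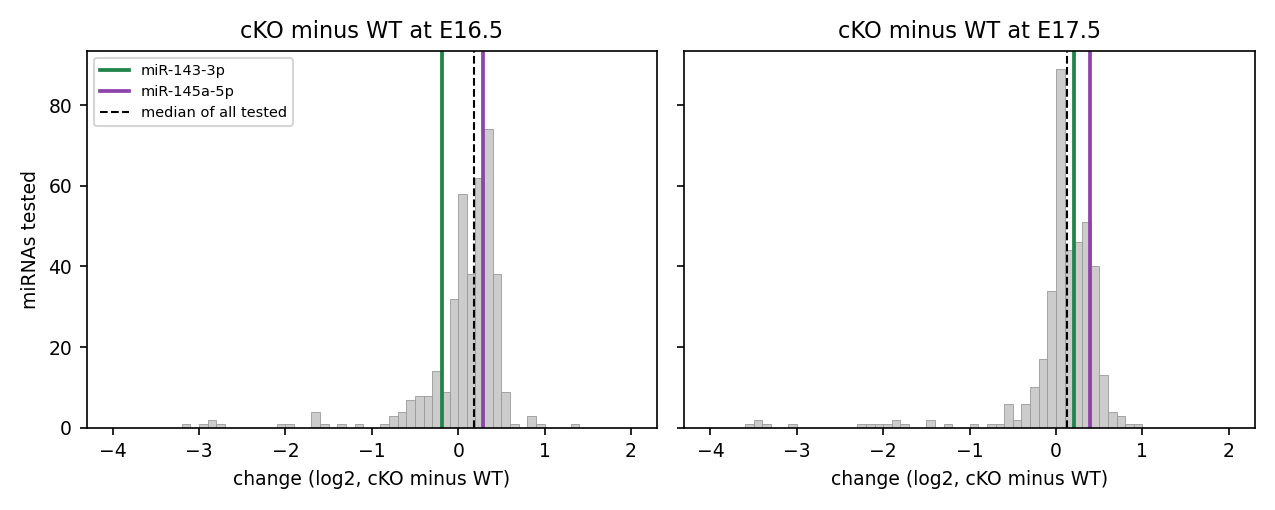
Number of miRNAs by log2 change, cKO minus WT, at E16.5 and at E17.5 for the 385 tested, with miR-143-3p in green, miR-145a-5p in purple and the median of all tested dashed. At E16.5 miR-143-3p (−0.18) lies below the median (0.19), and at E17.5 both miRNAs lie above it (0.13).

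Whether the effect of the knockout differed between stages was tested directly. For miR-143-3p the change at E17.5 minus that at E16.5 was 0.39 ± 0.0799 (SE), with an interval of 0.19 to 0.60, a p of 0.00427 before and of 0.0701 after adjustment in limma, so it did not pass, in a comparison in which 1.56% of all tested miRNAs passed. For miR-145a-5p the difference was 0.11 ± 0.115 (SE), with an interval of −0.18 to 0.40 and an adjusted p of 0.537 in limma.

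Between stages, miR-143-3p rose at E17.5 relative to E16.5 in cKO by 0.29 ± 0.0565 (SE) on the log2 scale, with an adjusted p of 0.0231 in limma, where 15.1% of all tested miRNAs passed as higher. In WT its change between stages was −0.10 ± 0.0565 (SE), with an adjusted p of 0.288, where 4.16% passed as higher and 10.6% as lower. miR-145a-5p changed between stages by −0.12 in cKO (adjusted p of 0.285 in limma) and by −0.23 in WT (adjusted p of 0.115), and neither passed. With each array left out in turn, the rise of miR-143-3p in cKO stayed between 0.23 and 0.36 and passed in 3 of 8 fits, those without replicate 1 of cKO at E17.5 or without either WT array at E16.5.

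The direction of these changes depended on how arrays were brought to a common scale. Over both stages the change of miR-145a-5p ran from −0.15 (scaling on the positive control probes) to 0.34 over 7 scalings, and that of miR-143-3p from −0.47 to 0.02, and the median of all tested moved between −0.25 and 0.17 with them. Taken relative to that median, miR-145a-5p stood 0.10 to 0.17 above it and miR-143-3p lay between −0.23 and −0.08 relative to it under each of the 7 scalings. Dividing an array by a single number moves a miRNA and that median nearly together, so the relative values could differ little. Only quantile scaling is a separate check, with 0.13 for miR-145a-5p and −0.084 for miR-143-3p. At E16.5 miR-143-3p was below WT under all 7 scalings (−0.51 to −0.17) and also below the median of all tested (−0.45 to −0.28 relative to it). At E17.5 it ran from −0.44 to 0.22, and relative to the median from −0.02 to 0.14. miR-145a-5p at E16.5 ran from −0.039 to 0.28 and stood only 0.016 to 0.096 above the median. At E17.5 it ran from −0.25 to 0.39 and stood 0.17 to 0.27 above the median. The rise of miR-145a-5p over both stages passed under 3 of 7 scalings, those on the 75th percentile or the median of detected probes and quantile scaling.

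**Figure D4:**
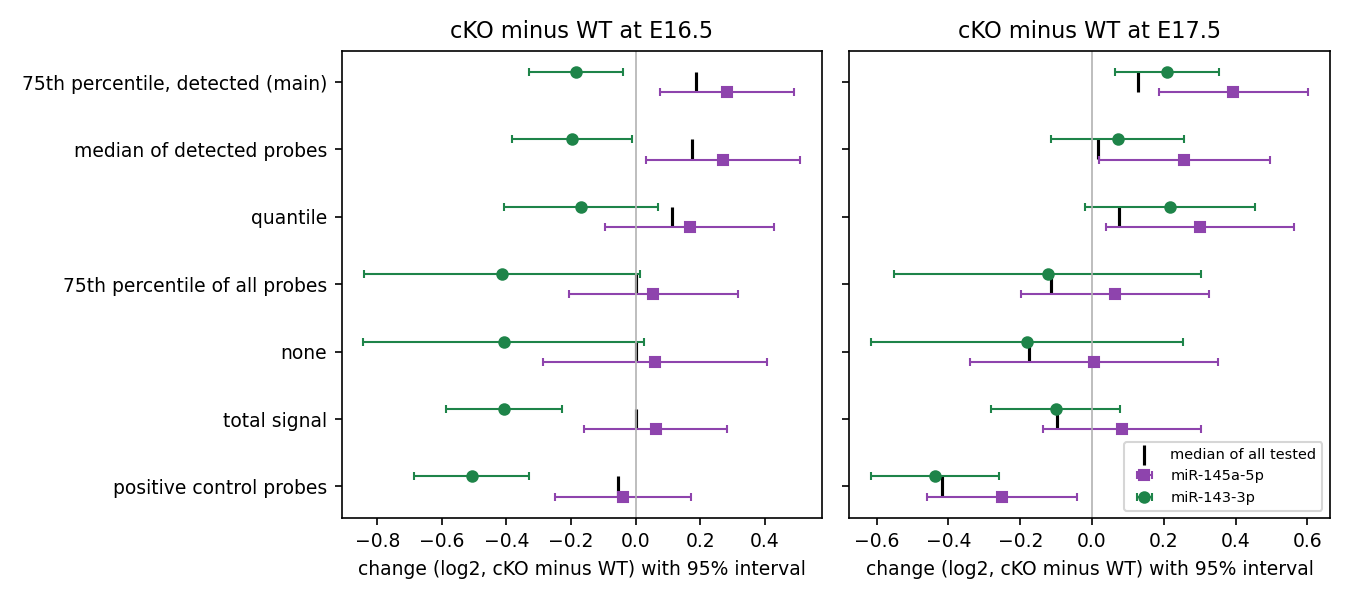
Log2 change, cKO minus WT, with its 95% interval from limma for miR-143-3p (green circles) and miR-145a-5p (purple squares) at each stage under 7 array scalings, with a black tick for the median of all tested miRNAs. miR-145a-5p lies to the right of miR-143-3p under every scaling at both stages, whereas the side of 0 on which each falls depends on the scaling, except for miR-143-3p at E16.5.

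A difference of the 2 miRNAs within an array is unchanged by any scaling that divides an array by a single number, though not by quantile scaling or by another background correction. Its level cannot be read as relative abundance, since the probes are different, but its change between groups can be compared. The log2 signal of miR-145a-5p minus that of miR-143-3p was −0.86 and −0.70 in cKO and −1.29 and −1.20 in WT at E16.5, and −1.14 and −1.24 in cKO and −1.39 and −1.36 in WT at E17.5. cKO was higher than WT on both arrays at each stage, while across stages replicate 2 of cKO at E17.5 (−1.24) lay below replicate 2 of WT at E16.5 (−1.20). The mean was −0.98 in cKO and −1.31 in WT, a difference of 0.33, with p = 0.0571 in a two-sided exact permutation test over 70 arrangements (smallest possible 0.0286). Permuted within stage, the exact test gave p = 0.0556, the smallest that its 36 arrangements allow. The difference was 0.47 at E16.5 and 0.19 at E17.5, where 6 arrangements each allow no p below 0.333. With quantile scaling it was 0.21 (at E16.5 0.34, at E17.5 0.082), with an exact permutation p of 0.114, and with normexp background correction it was 0.14, with an exact permutation p of 0.171. With each array left out in turn it stayed between 0.23 and 0.41. The exact permutation p then ran from 0.0286 (without replicate 2 of cKO at E17.5) to 0.143 (without replicate 1 of WT at E16.5 or either WT array at E17.5). With an array left out, 0.0286 is the smallest p that the test allows.

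**Figure D5:**
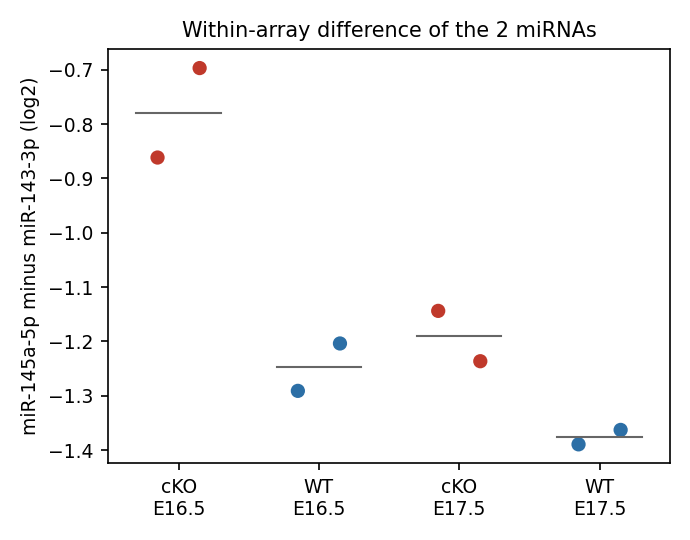
Log2 signal of miR-145a-5p minus that of miR-143-3p on each array, cKO in red and WT in blue, with a line at each group mean of 2 arrays. cKO lies above WT at both stages, by 0.47 at E16.5 and by 0.19 at E17.5.

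The list of miRNAs linked to contractile smooth muscle holds the members, miR-143-5p, miR-145b and the muscle miRNAs miR-1a-3p, miR-133a-3p and miR-133b-3p. Of its 8 miRNAs 5 were tested, and over both stages 4 of 5 rose in cKO and 0 fell, with a median of 0.29, where 45.7% of all tested miRNAs rose and 14.5% fell, with a median of 0.17. miR-1a-3p, a muscle miRNA that restrains proliferation, rose by 0.36 and miR-133a-3p by 0.29, and miR-133b-3p, nearly identical to miR-133a-3p and possibly read by the same probes, rose by 0.24. These 3 are also on the list for skeletal muscle. miR-143-3p was the 1 tested miRNA of this list that did not pass (0.01). Of this list 0 of 5 rose with the 75th percentile of all probes, without scaling or with total signal, where miR-143-3p fell. With positive controls 3 of 5 fell, where 256 of all 385 tested fell.

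Of the 6 miRNAs listed for the synthetic, proliferating state of smooth muscle, 6 were tested. In cKO over both stages 1 rose and 3 fell, with a median of −0.12, beside 45.7% higher, 14.5% lower and a median of 0.17 for all tested. miR-31-5p fell by 1.83 on the log2 scale, miR-221-3p fell by 1.21 and miR-24-3p fell by 0.24. Under the other scalings 3 to 5 of the 6 fell. The count was 5 with positive controls, where 256 of all 385 tested fell, and 4 with total signal, where 111 fell. miR-146a-5p, a miRNA induced by NF-kappaB signalling, rose by 0.37. With positive controls, the 75th percentile of all probes, no scaling or total signal, 0 of the 6 rose. miR-31-5p was detected on 5, miR-221-3p on 6 and miR-146a-5p on 6 of the 8 arrays, so their fitted changes rest partly on values not well above background. miR-222-3p was detected on 2 arrays and lay at the floor on every array after scaling, so its fitted change of 0.00 carries no information. miR-31-5p is also abundant in keratinocytes, whose listed miRNAs fell in the same samples, and the part of epithelial cells in its change was not tested.

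Lists for other cell types of skin are set beside the same shares of all tested miRNAs over both stages (45.7% higher, 14.5% lower, median 0.17). For dermal mesenchyme 8 of 9 rose and 0 fell over both stages, with a median of 0.36. Among them miR-335-5p rose by 0.41, miR-199a-5p by 0.41, miR-199a-3p by 0.40 and miR-214-5p by 0.38. For endothelium, 2 of 2 tested, miR-126a-5p (0.55) and miR-126a-3p (0.34), rose, with a median of 0.44. For skeletal muscle 5 of 5 tested rose, with a median of 0.32, led by miR-499-5p at 0.39. For blood 3 of 6 tested rose and 0 fell, a share near that of all tested, with a median of 0.21. With positive-control scaling 0 of 9 dermal, 0 of 2 endothelial, 0 of 5 skeletal muscle and 0 of 6 blood miRNAs rose, and 4, 1, 2 and 4 of them fell. Of all 385 tested, 256 fell with this scaling, and the median of all tested was −0.25. The medians of the 4 lists lay above it, at −0.12, −0.040, −0.16 and −0.23. With the 75th percentile of all probes or without scaling, 0 miRNAs of these 4 lists passed in either direction over both stages, where 6 of all 385 were called higher. With total signal 1 of 2 endothelial miRNAs rose and 0 of the other 3 lists passed. With the median of detected probes 7 of 9 dermal, 2 of 2 endothelial, 5 of 5 skeletal muscle and 2 of 6 blood miRNAs rose. With quantile scaling 5 of 9, 2 of 2, 5 of 5 and 2 of 6 rose. The summed scaled signal of the 9 dermal mesenchyme miRNAs was 67.0 to 68.8 in cKO and 53.0 to 58.2 in WT at E16.5, and 71.9 to 73.2 in cKO and 51.6 to 53.5 in WT at E17.5. For the 2 endothelial miRNAs it was 2.01 to 2.02 in cKO and 1.56 to 1.67 in WT at E16.5, and 2.33 to 2.54 in cKO and 1.83 to 1.91 in WT at E17.5. The part of these cell types in the changes of miR-143-3p and miR-145a-5p was not tested.

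The pattern of miR-143-3p over the 8 arrays was most like that of miR-542-3p (Pearson r = 0.83), miR-23b-3p (0.82), miR-101a-3p (0.77), miR-299a-3p (0.75) and miR-376a-3p (0.72), among the 261 miRNAs detected on all 8. That of miR-145a-5p was most like miR-652-5p (0.94), miR-370-3p (0.93), miR-3102-5p (0.92), miR-6368 (0.92) and miR-134-5p (0.91). Between miR-143-3p and miR-145a-5p themselves, whose hairpins share a host gene, r was 0.04 over the 8 arrays with the main scaling, rank 139 of 260 partners of miR-143-3p. It was not computed under other scalings, and before scaling both miRNAs were brighter at E17.5 than at E16.5 in each genotype. This r therefore cannot show whether the pair vary apart. All these correlations describe 8 arrays on 1 slide that share genotype, stage and scaling. Of these 10 partners, 9 have a mature sequence in RefSeq's GRCm38.p6 table, given here 5′ to 3′ with the seed, bases 2 to 8, in capitals, to show whether the partners share seeds with each other.
miR-542-3p: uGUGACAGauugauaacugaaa
miR-101a-3p: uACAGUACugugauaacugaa
miR-299a-3p: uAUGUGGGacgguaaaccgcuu
miR-376a-3p: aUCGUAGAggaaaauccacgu
miR-652-5p: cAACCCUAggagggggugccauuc
miR-370-3p: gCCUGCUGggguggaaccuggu
miR-3102-5p: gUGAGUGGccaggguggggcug
miR-6368: cUGGGAAGcaguggaggggag
miR-134-5p: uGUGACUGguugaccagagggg

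The 9 sequences carry 9 distinct seeds, so no 2 of these partners belong to the same seed family. By position, 4 of the 9 lie on chromosome 12 (miR-299a-3p and miR-376a-3p with miR-143-3p, miR-370-3p and miR-134-5p with miR-145a-5p), where 20.8% of the 231 miRNAs detected on all arrays with a RefSeq entry lie. The partners of miR-145a-5p had log2 changes in cKO of 0.25 to 0.47 at E16.5 and 0.27 to 0.47 at E17.5. They were picked for their correlation with it over these same arrays, so sharing its direction follows largely from that choice. Among all tested miRNAs, both cKO arrays lay above both WT arrays for 56.1% (E16.5) and 55.3% (E17.5). The partners of miR-143-3p had changes of −0.17 (miR-101a-3p) to 0.02 (miR-299a-3p) at E16.5 and of 0.10 (miR-23b-3p) to 0.48 (miR-299a-3p) at E17.5. They were picked in the same way, so sharing the pattern of miR-143-3p also follows largely from that choice.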

How the data were processed

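The authors extracted the scanned arrays with Agilent Feature Extraction 11.5.1.1, per the file headers, and the deposited scanner files hold a background-subtracted fluorescence intensity per spot in arbitrary linear units. The deposited value table held the same intensity values wherever the signal was above 0 and served as an alternative. Spots marked as outliers were left out (2.84% to 6.02% per array) and the rest averaged per probe. Signals were divided by their own array's 75th percentile, taken over 474 probes with detection on every array, where detected means over 50% of spots well above background. For the main tests, values below a floor of −4.24 were raised to it after log2. The scaled levels of the members on each array are given without this floor. The probe of highest mean stood for each miRNA. Testing covered 385 miRNAs, those with detection in a whole group of 2 arrays, and used limma 3.58.1 in R 4.3.3 (4 group means, eBayes with trend, Benjamini-Hochberg within each of 6 contrasts, threshold 0.05), after a check on simulated data. The fit had 4 residual and 1.08 prior degrees of freedom, and the number of arrays limits the precision. Figures used matplotlib 3.10.9 in Python 3.11.15.

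The members, the lists and the rule for naming miRNAs (the members, miR-143-5p, miR-145b, up to 4 per list with the largest change over both stages, and the 5 most correlated with each member) were chosen with earlier results of these data known. Replicate numbers go with the slide row. The planned within-array comparison of miR-145a-3p with miR-145a-5p was not run, because miR-145a-3p was detected on no array. Alternatives covered scaling, background, filter, floor, probe, spots, replicate block and each array left out in turn.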

Additional observations from a re-analysis of the deposited data

Results flagged for a closer look

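miR-143-3p moved in opposite directions at the 2 stages on every array with the main scaling, below WT in cKO at E16.5 and above WT at E17.5. The change at E17.5 minus that at E16.5 was 0.39 (log2), and the test of this difference in limma gave an adjusted p of 0.0701, which did not pass. Over 7 scalings the difference ran from 0.070 (positive control probes, adjusted p of 0.605 in limma) to 0.39, and with normexp background correction it was 0.23 (adjusted p of 0.317). Set against the median over all miRNAs tested, it was 0.31 to 0.37 over the 7 scalings. Dividing each array by a single number can move this relative value little, and with quantile scaling it was 0.37.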

How the results depend on the processing

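Each result was recomputed under other scalings, backgrounds, filters, probes and spot rules. Some alternatives were chosen after seeing the data: negative controls subtracted, the dimmer probe with no floor, and no filter with no trend, since a trend could not be fitted with most miRNAs at the floor. All values below are log2 changes, and the cause of each shift was not tested. For miR-143-3p over both stages the change was −0.27 with the 75th percentile of all probes, −0.063 with the median of detected probes, −0.29 without scaling, −0.47 with positive controls, −0.25 with total signal, −0.017 with median spots and −0.0027 with outlier spots kept.

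At E16.5 the fall of miR-143-3p no longer passed with negative controls subtracted (−0.18), normexp (−0.018), no filter (−0.18), the mean of all probes (−0.17), the 75th percentile of all probes (−0.41), the median of detected probes (−0.20), no scaling (−0.41), quantile scaling (−0.17), outlier spots kept (−0.17), the stage fitted alone (−0.18) or the dimmer probe (−0.15). At E17.5 its rise no longer passed with no filter (0.21), the mean of all probes (0.19), the median of detected probes (0.071), quantile scaling (0.22), outlier spots kept (0.16), the stage alone (0.21) or the dimmer probe (0.17). It turned negative with the 75th percentile of all probes (−0.12), no scaling (−0.18), positive controls (−0.44) and total signal (−0.10). Between stages in cKO its rise no longer passed with normexp (0.0062), no filter (0.29), the 75th percentile of all probes (0.56), no scaling (0.73), outlier spots kept (0.29) or the dimmer probe (0.18). In WT its change between stages was −0.23 and passed with normexp, and was positive with the 75th percentile of all probes (0.27), the median of detected probes (0.012), no scaling (0.51), positive controls (0.31), quantile scaling (0.0078) and total signal (0.16).

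The rise of miR-145a-5p over both stages no longer passed with no filter (0.34), the 75th percentile of all probes (0.059), no scaling (0.033) or total signal (0.073), and was −0.15 with positive controls. At E16.5 it no longer passed with normexp (0.20), no filter (0.28), the 75th percentile of all probes (0.055), the median of detected probes (0.27), no scaling (0.060), quantile scaling (0.17), total signal (0.062), outlier spots kept (0.30) or the stage alone (0.28), and was −0.039 with positive controls. At E17.5 it no longer passed with no filter (0.39), the 75th percentile of all probes (0.063), the median of detected probes (0.26), no scaling (0.0058), quantile scaling (0.30) or total signal (0.085), and was −0.25 with positive controls. Its difference between stages was −0.014 with the median of detected probes, −0.054 without scaling and −0.21 with positive controls. Its change between stages in cKO was positive with the 75th percentile of all probes (0.15), no scaling (0.32), quantile scaling (0.014), total signal (0.050) and the dimmer probe (0.092). In WT it was −0.33 and passed with normexp, and was positive with the 75th percentile of all probes (0.15), no scaling (0.38), positive controls (0.18) and total signal (0.027).

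The within-array difference of miR-145a-5p and miR-143-3p between cKO and WT reached an exact permutation p of 0.0286, the smallest possible, with the mean of all probes (0.30), median spots (0.38), negative controls subtracted (0.37) and the dimmer probes (0.47). It was smaller with normexp (0.14, exact permutation p of 0.171) and with quantile scaling, added after seeing the data (0.21, exact permutation p of 0.114), and with outlier spots kept it was 0.38 (exact permutation p of 0.0857). In the mean of all probes the dimmer probe of miR-145a-5p was held at the floor on every WT array. With each array left out in turn, miR-143-3p ranged from −0.020 to 0.044 over both stages, from −0.20 to −0.16 at E16.5, from 0.14 to 0.27 at E17.5 and from 0.23 to 0.36 between stages in cKO. miR-145a-5p ranged from 0.29 to 0.39 over both stages, from 0.18 to 0.39 at E16.5 and from 0.35 to 0.43 at E17.5, and the within-array difference from 0.23 to 0.41. Same-numbered arrays deviated together with correlations of −0.14 to 0.28 over 6 pairs of groups. Such correlations cannot show whether these arrays share more than a number and a slide row. At E16.5 replicate 2 had more outlier spots (6.02% in cKO, 4.94% in WT) than replicate 1 (2.84% and 2.99%). With a block for replicate number, limma's adjusted p was 0.00245 for miR-145a-5p and 0.772 for miR-143-3p over both stages, the block changed no call of either miRNA, and the within-array difference gave an exact permutation p of 0.111. The alternatives for miR-145a-3p against miR-145a-5p were not run, since miR-145a-3p was detected on no array, and signal near background also limits the dimmer probe of miR-145a-5p.

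Over both stages the number of miRNAs called higher was 176, and 80 with no filter, 6 with the 75th percentile of all probes, 6 without scaling, 7 with positive controls and 22 with total signal. The number called lower was 56, and 256 with positive controls and 111 with total signal. At E16.5 138 were called higher and 58 lower, and the alternatives with all arrays kept that moved these counts by over 1.5 times gave 3 to 47 higher and 17 to 109 lower. At E17.5 138 were called higher and 39 lower, and such alternatives gave 3 to 71 higher and 95 to 296 lower. With an array left out, the number called higher at E16.5 was 62 without replicate 1 of cKO at E16.5, 87 without replicate 1 of WT at E16.5 and 90 without either WT array at E17.5. At E17.5 it was 81 without replicate 2 of WT at E17.5. For the difference between stages 3 were called higher and 3 lower, and such alternatives gave 0 to 12 higher and 0 to 104 lower. Between stages 58 were called higher and 78 lower in cKO, and such alternatives gave 1 to 105 higher and 5 to 141 lower, while in WT 16 were called higher and 41 lower, and such alternatives gave 1 to 234 higher and 4 to 143 lower. With each array left out in turn, 0 to 12 were called higher and 3 to 30 lower for the difference between stages, 21 to 62 higher and 10 to 77 lower between stages in cKO, and 2 to 14 higher and 6 to 47 lower between stages in WT.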
